A study of Sus scrofa with 27 samples.

Results

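The genes of oxidative phosphorylation were followed in pig lungs kept on ex vivo lung perfusion (EVLP), a procedure in which a donor lung is ventilated and perfused outside the body. They were taken from the gene count table as the protein-coding rows whose names follow the symbols of the subunits of complexes I to V, together with the protein-coding genes of mitochondrial DNA. This gave 78 genes out of 31908 rows, of which 65 are nuclear and 13 are mitochondrial. Complex I had 29 nuclear and 7 mitochondrial members, complex II had 3 nuclear members, complex III had 5 and 1, complex IV had 14 and 3, and complex V had 14 and 2. The nuclear member NDUFB7 had no count in any library, which leaves 64 for testing, and NDUFA4 and NDUFA4L2 were placed in complex IV. SDHA, COX6B1 and COX7B were not found under these names in the table and are not analysed here.

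Lungs came from Large-White pigs by a non-heart-beating donor model and spent a period in cold ischemia before EVLP by the Toronto protocol with Steen solution that held methylprednisolone, cefuroxime and heparin. In the Gold Standard group (GS, 5 pigs, numbered 9, 17, 44, 55 and 77), part of the Steen solution was replaced at regular intervals. In the Pediatric Dialysis group (PD, 4 pigs, numbered 2, 3, 4 and 5), a hemodialyzer on the circuit treated the perfusate instead. Lung tissue of each pig was biopsied at 0h, before EVLP, and at 6h and 12h, which gave 15 GS and 12 PD libraries of polyadenylated RNA. The PD lungs had served in an earlier study and the GS lungs had not, tissue was either frozen or kept in RNAlater, and RNA was extracted by either of 2 kits. The labels do not say which library had which kit.

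Oxidative phosphorylation is the last step of respiration. Complex I takes electrons from NADH and complex II from succinate, complex III passes them from ubiquinol to cytochrome c, complex IV gives them to oxygen, and complex V uses the proton gradient that complexes I, III and IV build to make ATP. All complexes but complex II are built from subunits of both genomes. The mitochondrial genes are read as long transcripts from each strand of a circular genome and cut into single messengers, whereas each nuclear subunit has its own promoter and its protein is imported. Nuclear respiratory factors, among them NRF1 and GABP, are known to act at many promoters of the nuclear subunits.

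The 13 mitochondrial genes lie on 1 molecule, and the sequences of the reference genome (Sscrofa11.1, from RefSeq, whose coordinates matched those of the count table for all 13 genes) show how tightly they are packed. ATP8 and ATP6 share 43 bases at MT:9120-9162 on the plus strand, ND4L and ND4 share 7 bases at MT:11359-11365, and ND6 shares 17 bases with ND5 on the opposite strand at MT:14739-14755. The first pair is shown whole, with the first codon of ATP6 and the last codon of ATP8 in capitals, and the second pair with its shared bases in capitals, 5′ to 3′, because reads from such bases cannot be given to 1 gene alone:
ATP8/ATP6: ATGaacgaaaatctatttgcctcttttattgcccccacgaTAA
ND4L/ND4: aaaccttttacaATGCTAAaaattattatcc

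The last 20 bases of the 4 genes that passed the test at both times in every fit without 1 GS pig, and of the 3 complex IV genes, none of which passed it in GS, are shown next, 5′ to 3′ on the plus strand, at MT:4857-4876 for ND1, MT:6109-6128 for ND2, MT:10979-10998 for ND3, MT:16462-16481 for CYTB, MT:8036-8055 for COX1, MT:8871-8890 for COX2 and MT:10564-10583 for COX3. Capitals mark either the single base past the last whole codon or the whole last codon. In mammalian mitochondria such a lone T becomes a stop codon once the poly(A) tail is added, so the messenger end that is captured with polyadenylated RNA also completes the reading frame:
ND1: aagcattcccccacaatcaT
ND2: agccctctcgtccctaaacT
ND3: aggcctagaatgagcagaaT
CYTB: acaacctattaaaatgaAGA
COX1: catatatcaacctaaaaTAA
COX2: aacatcaatattaacaggtT
COX3: aatctattgatgaggatccT
Of the 13 genes, 6 end on 1 base past a whole codon, namely ND1, ND2, COX2, COX3, ND3 and ND4. Genes that rose during GS perfusion (ND1, ND2 and ND3) and genes that did not pass the test (COX2 and COX3) were both among them.

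Levels are given as CPM, the counts of a gene scaled to 1 common library size, with the trimmed mean of M values (TMM) as scaling between libraries. Library totals ran from 26335584 to 67522703 counts in GS and from 14650700 to 21820935 in PD, so every PD library was shallower than every GS library. A slope on log2 transcript length was fitted, together with GC content, for the protein-coding genes of each library. It was fitted to log2 levels taken relative to each gene's mean over all 27 libraries, so its sign is relative to that mean. The slope was 0.13 to 0.28 in GS and -0.51 to -0.07 in PD, so that short transcripts weighed more in the PD libraries than in the GS libraries. The nuclear members are short, with a median exonic length of 886.5 bases over 60 members against 3727 bases over 14477 genes tested at 0h. Group, depth and length trend cannot be told apart in this design, and group levels were therefore also compared after the trend was removed.

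The 13 mitochondrial genes took 2.38% to 9.43% of all counts in the GS libraries and 1.45% to 11.3% in the PD libraries. The median share in GS was 6.41% at 0h, 6.47% at 6h and 6.30% at 12h, and in PD it was 8.48%, 7.92% and 6.11%. GS pig 17 held the lowest GS shares at all 3 times, at 2.38%, 3.12% and 2.39%, and the PD pig 2 library at 12h held the lowest share of all, 1.45%, after 10.8% at 0h and 11.3% at 6h in the same pig. The 65 nuclear members took 0.251% to 0.348% of the counts in GS and 0.565% to 1.09% in PD, with no overlap between the groups. The highest nuclear share, 1.09%, came from that same PD pig 2 library at 12h, whose length slope of -0.51 was also the lowest. The PD changes at 12h that it moves are given with and without it, or pig by pig. The 12h counts of genes with every PD pig above or below every GS pig include it.

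**Figure D1:**
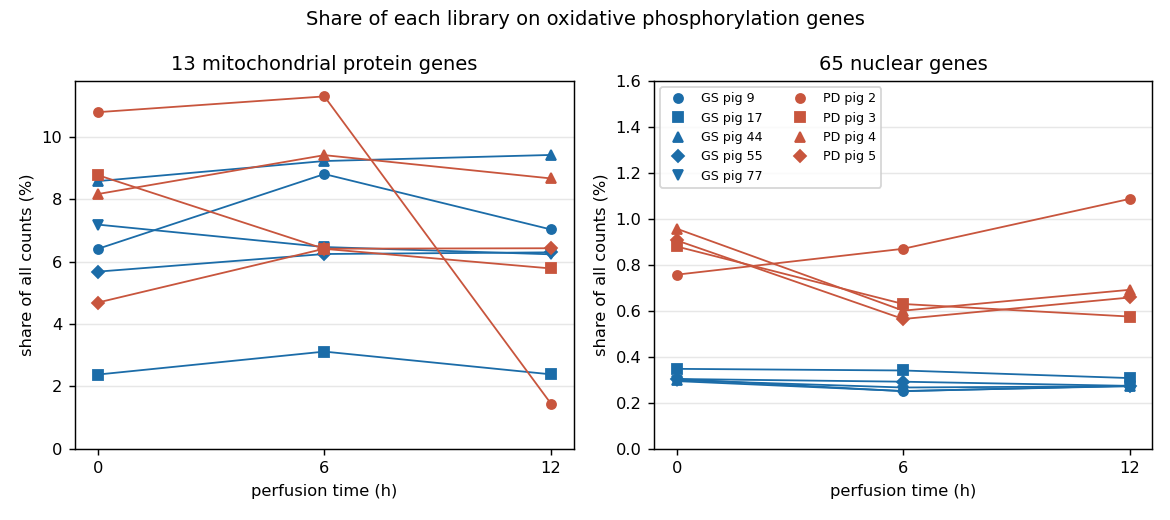
Share of all counts (%, y axis) on the 13 mitochondrial protein genes (left) and the 65 nuclear genes (right) against perfusion time in h (x axis), 1 line a pig, GS in blue and PD in red. The PD lines for nuclear genes lie above 0.5% and the GS lines below 0.4% at all 3 times, and PD pig 2 drops to 1.45% mitochondrial counts at 12h.

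The first question was which of these genes changed in lungs under standard perfusion. In GS, most mitochondrial messengers rose at 6h in the reported fit, and few nuclear subunit messengers passed the test in either direction. At 6h, 8 of the 13 mitochondrial genes rose and none fell, with a median log2 change of 0.40 over the 13, whereas 2 of the 64 nuclear members rose and 4 fell, with a median of -0.02. Over all 18594 genes tested, 13.6% rose, 14.9% fell and 28.5% changed in either direction, and the median change was -0.05 (edgeR quasi-likelihood test with the pig as a block, Benjamini-Hochberg adjusted p under 0.05 over all genes). At 12h, 5 mitochondrial genes rose (median 0.19), 6 nuclear members rose and 3 fell (median 0.05), beside 17.6% higher, 20.8% lower and 38.4% in either direction over all genes (median -0.08). The nuclear share, 6 of 64 at 6h and 9 of 64 at 12h, was thus below the background at both times. With the length and GC trend of each library removed, the medians over the 59 nuclear members with a length went from -0.02 and 0.05 to -0.07 and -0.03. Of these 59, 2 rose and 4 fell at 6h and 5 rose and 3 fell at 12h as fitted. With the trend removed, 3 rose and 6 fell at 6h and 5 rose and 8 fell at 12h. In that form 5598 and 7503 of 18594 genes were called. Of the 13 mitochondrial genes, 6 then rose at 6h and 5 at 12h. At least 2-fold changes with a call were rare among the members, with 1 nuclear gene at 6h, 2 nuclear genes and 1 mitochondrial gene at 12h, beside 11.1% and 15.7% of all genes.

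Markers of some cell types moved during the same GS perfusion. Of 5 markers of T and NK cells, 3 were lower at 6h and 4 at 12h, and their sum went from 184 to 394 CPM at 0h to 100.6 to 301 CPM at 6h and 82.7 to 261 CPM at 12h. Of 6 markers of endothelium, 2 were lower at 6h, and 3 were lower and 1 higher at 12h, with sums of 2001 to 2722, 1385 to 2995 and 1921 to 3309.6 CPM. Of 6 markers of ciliated airway epithelium, none was called at 6h and 4 were lower at 12h, with sums of 189 to 257, 187 to 243 and 122 to 219.9 CPM. Each sum overlapped between the times. Of the other 10 marker lists, each had at most 1 gene called in a direction. The part of these markers in the GS results was not tested.

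ND2, a membrane subunit of complex I, moved most among the mitochondrial genes. In the GS pigs 9, 17, 44, 55 and 77 it stood at 2661, 610.1, 3669, 2567 and 3278 CPM at 0h. At 6h the same pigs gave 5734, 1198, 8061, 4752 and 5356 CPM, and at 12h 4527, 1273, 9511, 5592 and 5946 CPM. The level of ND2 was higher in every pig at both later times than in the same pig at 0h, although the pigs overlapped between times because pig 17 was low throughout. The log2 change was 0.95 (SE 0.11, adjusted p = 0.000303) at 6h and 1.01 (SE 0.12, adjusted p = 0.000101) at 12h. At 12h ND2 was the only called mitochondrial gene with a change of at least 2-fold.

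ND3 and ND1, further membrane subunits of complex I, rose in 5 of 5 pigs as well. ND3 stood at 899, 237, 1099, 718 and 981 CPM at 0h, 1671, 427, 1746, 1315 and 1501 CPM at 6h and 1295, 495, 1696, 1597 and 1556 CPM at 12h, in the pig order given for ND2. Its log2 change was 0.76 (SE 0.12, adjusted p = 0.000958) at 6h and 0.78 (SE 0.12, adjusted p = 0.000482) at 12h. ND1 stood at 2752, 416, 4949.9, 2445 and 3173 CPM at 0h, 4659.8, 663, 8552, 3188 and 3906 CPM at 6h and 3733, 637, 8097, 3699 and 3441 CPM at 12h. Pig 44 was the highest and pig 17 the lowest at each time, and within each pig both later values lay above the 0h value. The log2 change of ND1 was 0.56 (SE 0.11, adjusted p = 0.00375) at 6h and 0.46 (SE 0.11, adjusted p = 0.00739) at 12h.

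CYTB, the mitochondrial subunit of complex III that holds its quinone sites, stood at 4373, 1016, 4217, 2434 and 3664 CPM at 0h, 7364, 1785, 7597, 4388 and 4239 CPM at 6h and 6639, 1624, 8479.7, 4924 and 3710.2 CPM at 12h. Every pig was higher at 6h and 12h than at 0h, but pig 77 by little. The log2 change was 0.67 (SE 0.14, adjusted p = 0.00403) at 6h and 0.63 (SE 0.14, adjusted p = 0.00381) at 12h. ND1, ND2, ND3 and CYTB kept their calls at both times in each of the 5 fits that left out 1 GS pig.

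ATP6, which forms the proton path of complex V, rose by 0.40 (SE 0.11, adjusted p = 0.0153) at 6h and by 0.33 (SE 0.11, adjusted p = 0.027) at 12h on the log2 scale, in 5 of 5 pigs at both times. ATP8, its small neighbour in the membrane part of complex V, rose at 6h by 0.43 (SE 0.13, adjusted p = 0.0266), and gave 0.30 (SE 0.13, adjusted p = 0.0847) at 12h. ATP8 has 204 bases, of which 43 lie in ATP6 (sequence above), so the 2 values are not independent. ND4 and ND4L, which overlap in the same way, rose at 6h by 0.39 (SE 0.13, adjusted p = 0.0347) and 0.45 (SE 0.15, adjusted p = 0.039) and stood at 0.12 and 0.19 at 12h. Their calls and those of ATP8 were lost in most of the fits without 1 pig, in 3 of 5 for ATP8 and in 4 of 5 for ND4 and ND4L, while the call of ATP6 at 6h was lost without pig 17 and that at 12h without pig 17, 55 or 77. The 6h calls of ATP8 (adjusted p = 0.133) and ND4L (adjusted p = 0.0723) were also lost once the length and GC trend of each library was removed.

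COX1, COX2 and COX3, the catalytic core of complex IV, did not pass the test at either time. COX1 stood at 9976, 6568, 11794, 9388 and 11410.2 CPM at 0h, 11858, 7534, 12283, 10276 and 10430.1 CPM at 6h and 9831, 6668, 14169, 12426 and 10896 CPM at 12h. These ranges overlapped almost wholly, and the log2 change of COX1 was 0.09 (SE 0.11, adjusted p = 0.579) at 6h and 0.09 (SE 0.11, adjusted p = 0.542) at 12h. COX2 and COX3 had log2 changes of 0.23 and 0.25 at 6h and 0.14 and 0.11 at 12h, with adjusted p-values of 0.15 and 0.109, and 0.34 and 0.448. ND5 and ND6, the neighbours on opposite strands at the end of the ND genes, gave 0.19 and 0.16 at 6h and 0.03 and -0.08 at 12h. How reads in their 17 shared bases were assigned is not given in the sources used here.

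The make-up of the mitochondrial messenger pool shifted accordingly. ND2 made up 4.88, 3.42, 5.00, 5.56 and 5.5% of the counts on the 13 genes at 0h in the GS pigs, 7.14, 4.84, 8.35, 8.36 and 8.36% at 6h and 6.94, 5.86, 9.68, 8.76 and 9.60% at 12h, so its share was higher at both times in each of the 5 pigs. The share of COX1 was 18.3, 36.8, 16.1, 20.3 and 19.2% at 0h, 14.8, 30.4, 12.7, 18.1 and 16.3% at 6h and 15.1, 30.7, 14.4, 19.5 and 17.6% at 12h. It was lower at 6h than at 0h in each pig. As shares of 1 pool the values of the 13 genes depend on each other.

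**Figure D2:**
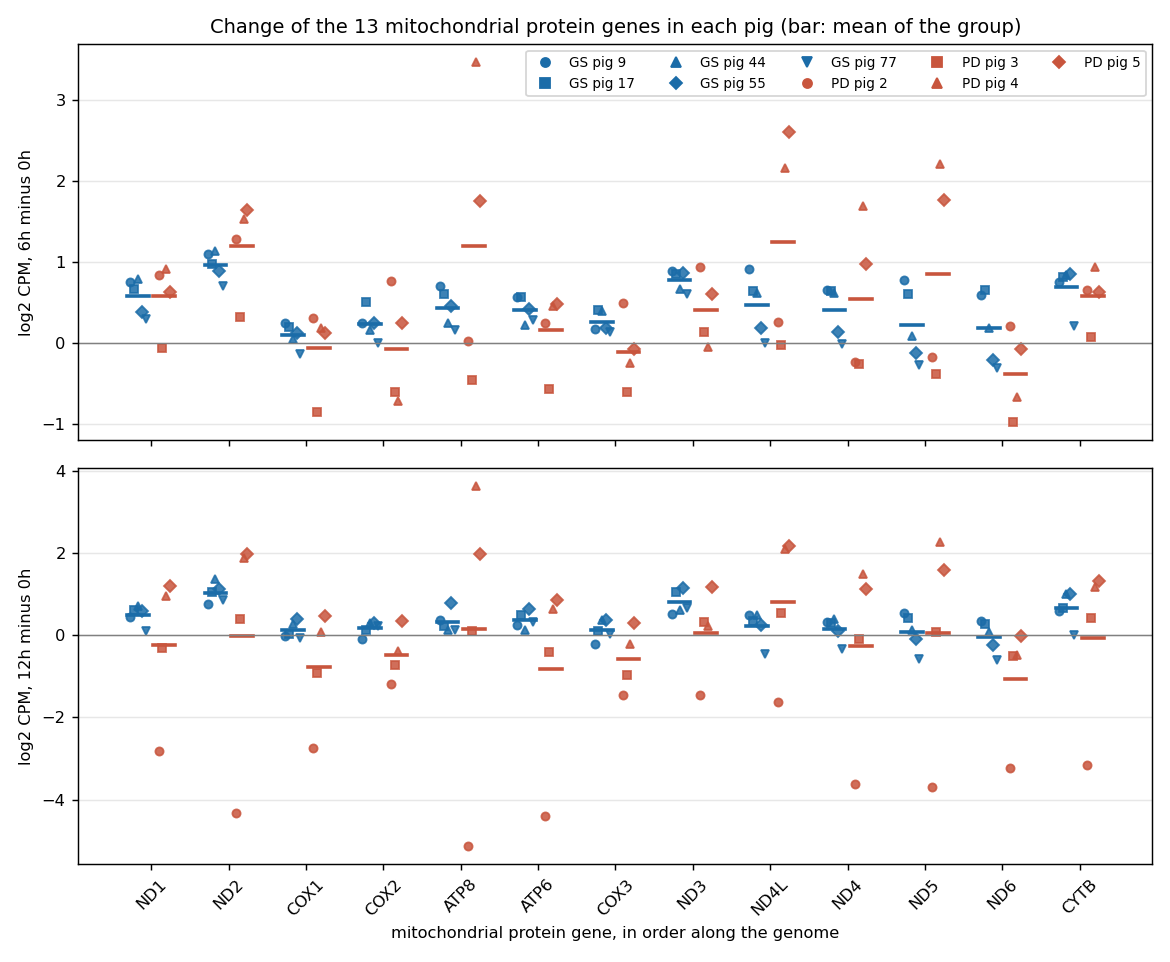
Change of each mitochondrial protein gene from 0h to 6h (top) and to 12h (bottom) on the log2 CPM scale (y axis), with the genes in order along the genome (x axis), 1 point a pig, GS in blue and PD in red, bars at the group mean. All 5 GS points of ND1, ND2, ND3 and CYTB lie above 0 in both panels, and PD pig 2 lies below 0 for all 13 genes at 12h.

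Of the 28 nuclear members of complex I tested in GS, 1 rose and 1 fell at each time. Over all genes 13.6% rose and 14.9% fell at 6h, and 17.6% rose and 20.8% fell at 12h. NDUFB9 (ENSSSCG00000005976, chr4:15075436-15113351), an accessory subunit of the membrane arm, rose at both times. It stood at 29.9, 36.0, 32.3, 33.7 and 28.4 CPM at 0h, 31.9, 55.5, 60.0, 52.1 and 46.0 CPM at 6h and 35.0, 72.9, 64.8, 67.0 and 47.7 CPM at 12h. Pig 9 changed least, and in the other 4 pigs all later values lay above the highest 0h value. The log2 change was 0.57 (SE 0.13, adjusted p = 0.0072) at 6h and 0.76 (SE 0.13, adjusted p = 0.000928) at 12h, higher in 5 of 5 pigs. Its call at 12h was kept in each fit without 1 pig, and that at 6h was lost without pig 44.

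NDUFS1 (ENSSSCG00000016127, chr15:109409770-109451676), an iron-sulfur subunit of the peripheral arm, was lower at 6h in 5 of 5 pigs, with a log2 change of -0.31 (SE 0.11, adjusted p = 0.0446), and the call was lost in each of the 5 fits without 1 pig and, narrowly, with the length and GC trend removed (adjusted p = 0.0506). NDUFS8 (ENSSSCG00000037455, chr2:4848599-4885860), another iron-sulfur subunit, stood at 2.81, 3.51, 9.22, 6.34 and 7.21 CPM at 0h and 5.27, 3.12, 1.90, 1.78 and 2.37 CPM at 12h. Pig 9 rose and the other 4 pigs fell, and the log2 change at 12h was -1.22 (SE 0.44, adjusted p = 0.0437). That call was lost without pig 44, 55 or 77. The core subunit NDUFV1, the site where NADH is bound, gave log2 changes of -0.07 at 6h and -0.02 at 12h and did not pass the test.

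Complex II, succinate dehydrogenase, is also an enzyme of the tricarboxylic acid cycle and has no mitochondrial subunit. SDHD (ENSSSCG00000015034, chr9:39790561-39803946), which anchors it in the membrane, fell at both times. It stood at 34.8, 56.8, 50, 52.3 and 46.0 CPM at 0h, 21.9, 47.3, 40.6, 41.2 and 32.4 CPM at 6h and 23.3, 39.7, 34.7, 34.2 and 35.9 CPM at 12h. All 5 pigs were lower at both times than at 0h, and pig 9 was the lowest at each time. The log2 change was -0.43 (SE 0.11, adjusted p = 0.0128) at 6h and -0.55 (SE 0.11, adjusted p = 0.00223) at 12h. The call at 12h was kept in each fit without 1 pig, and that at 6h was lost without pig 9 or 77. SDHB, the iron-sulfur subunit, was at -0.31 (adjusted p = 0.0506) and -0.24 (adjusted p = 0.0949), and SDHC, the other anchor, at -0.12 and -0.26, with no call.

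The promoter of SDHD is shown because it carries matches to the letters of 2 factors known for respiratory genes. It is the 150 bases before the gene start at chr9:39790411-39790560 of Sscrofa11.1, 5′ to 3′ on the plus strand, with the matches in capitals, first the YY1 core on the reverse strand and then the GABP core on the reverse strand:
SDHD: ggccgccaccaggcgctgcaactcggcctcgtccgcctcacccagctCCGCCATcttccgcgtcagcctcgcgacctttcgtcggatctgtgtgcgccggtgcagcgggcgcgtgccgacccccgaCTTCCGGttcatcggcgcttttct
In windows from 250 bases before to 50 bases after each gene start, searched on both strands, the GABP core CCGGAAG was found in 24.6% of the 65 nuclear members and in 10.8% of 20275 protein-coding genes. The palindromic NRF1 motif was found in 12.3% and 6.01%, and the YY1 core ATGGCGG in 12.3% and 5.46%. Of the nuclear members called in GS, SDHD, NDUFS1, COX7A2, ATP5F1A and ATP5MG had a match in these windows. NDUFB9, UQCR10, COX6B2, COX6A2, NDUFS8 and ATP5ME had none. A match is a description of these letters, and no binding was measured.

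Complex III had no nuclear gene that rose in GS, beside 13.6% of all genes at 6h and 17.6% at 12h. UQCR10, a small accessory subunit, fell at 6h in 5 of 5 pigs, with a log2 change of -0.38 (SE 0.12, adjusted p = 0.0327), and this call was lost in each fit without 1 pig. Its CPM was 17.2, 20.1, 19.1, 23.8 and 18.7 at 0h and 13.2, 14, 14.8, 19.1 and 15.9 at 6h. The 6h values lay below the 0h value of the same pig in all 5 pigs, with overlap between pigs. UQCRC1, a core subunit, gave -0.19 at both times, and UQCRFS1, the Rieske iron-sulfur protein, gave -0.02 at 12h, and neither passed the test at 6h (adjusted p = 0.306 and 0.982) or 12h.

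Complex IV has several subunits that exist as pairs of genes with different tissue use, and the called nuclear members were of this kind. COX6B2 (ENSSSCG00000035612, chr6:59530425-59531571), a form known from testis, rose from 0.237, 0.251, 0.247, 0.400 and 0.282 CPM at 0h to 0.415, 0.513, 0.790, 0.661 and 1.34 CPM at 6h and 0.437, 1.10, 0.571, 1.53 and 1.0 CPM at 12h. Each pig was higher at both later times, and the 6h and 12h values all lay above the highest 0h value of 0.40 CPM. The log2 change was 1.35 (SE 0.34, adjusted p = 0.011) at 6h and 1.61 (SE 0.33, adjusted p = 0.00278) at 12h. The GS libraries held only 8 to 78 counts of COX6B2, and per transcript length it was the lowest member with a length and any count at 0h, at a mean of 0.418 RPKM (CPM per kilobase). Its call was kept at 12h in each fit without 1 pig and was lost at 6h without pig 44 or 77.

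COX6A2 (ENSSSCG00000036789, chr3:17113388-17135104), the form of heart and skeletal muscle, stood at 17.1, 13.9, 19.3, 22.8 and 16.7 CPM at 0h, 10.8, 11.8, 14.4, 14.4 and 11.0 CPM at 6h and 18.7, 7.97, 11.6, 12.4 and 13.5 CPM at 12h. It was lower at 6h in all 5 pigs and lower at 12h in all but pig 9, with log2 changes of -0.52 (SE 0.18, adjusted p = 0.0482) and -0.53 (SE 0.18, adjusted p = 0.0369). Both calls were lost in 4 of the 5 fits without 1 pig. Summed striated muscle markers (MYH7, MYL2, TNNT2, ACTC1 and CKM) stood at 1.67 to 10.4 CPM over the GS libraries, with MYL2 at most at 0.0551 CPM, and their part in the COX6A2 result was not tested. COX7A2 (ENSSSCG00000004480, chr1:90696698-90703410), the form used in most tissues, rose at 12h by 0.38 (SE 0.10, adjusted p = 0.0125), from 20.2, 27, 20.1, 22.1 and 20.5 CPM to 26.7, 33.8, 29.3, 30.0 and 26.2 CPM. The 5 pigs all rose, and the call was lost without pig 44 or 55.

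The other paralogs of complex IV did not pass the test in GS. COX4I1, the common form of subunit IV, gave 0.30 at 6h and 0.28 at 12h, and COX4I2, the form known for its use in lung, 0.31 and 0.19. NDUFA4, found in complex IV, gave 0.00 and 0.07, and its hypoxia-inducible paralog NDUFA4L2 gave 0.30 and 0.15. COX6A1 gave 0.20 and 0.21, COX8A -0.04 and -0.04, COX5A -0.05 and -0.15, and the muscle form COX7A1, which was near the floor with 7 to 32 counts a GS library, 0.40 and 0.49.

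Among the 14 nuclear members of complex V, none was called at 6h and 3 rose at 12h. Over all genes 28.5% were called in either direction at 6h and 17.6% rose at 12h. ATP5F1A (ENSSSCG00000004499, chr1:95625800-95750875), the alpha subunit of the catalytic head, went from 215, 234, 208, 181 and 203 CPM at 0h to 256, 269, 263, 247 and 250.4 CPM at 12h. The groups of 5 did not overlap, and the log2 change was 0.28 (SE 0.09, adjusted p = 0.0323), higher in 5 of 5 pigs. ATP5MG and ATP5ME, small subunits of the membrane part, rose at 12h by 0.32 (SE 0.10, adjusted p = 0.0273) and 0.36 (SE 0.12, adjusted p = 0.032), in 5 and 4 of 5 pigs. Each of these 3 calls was lost in 3 or 4 of the 5 fits without 1 pig. ATP5F1B, the catalytic beta subunit, gave 0.02 and 0.05, ATP5IF1, the inhibitor of complex V, -0.11 and -0.09, and ATP5MC1, ATP5MC2 and ATP5MC3, which encode the same c-ring subunit, between -0.11 and 0.17, with no call.

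**Figure D3:**
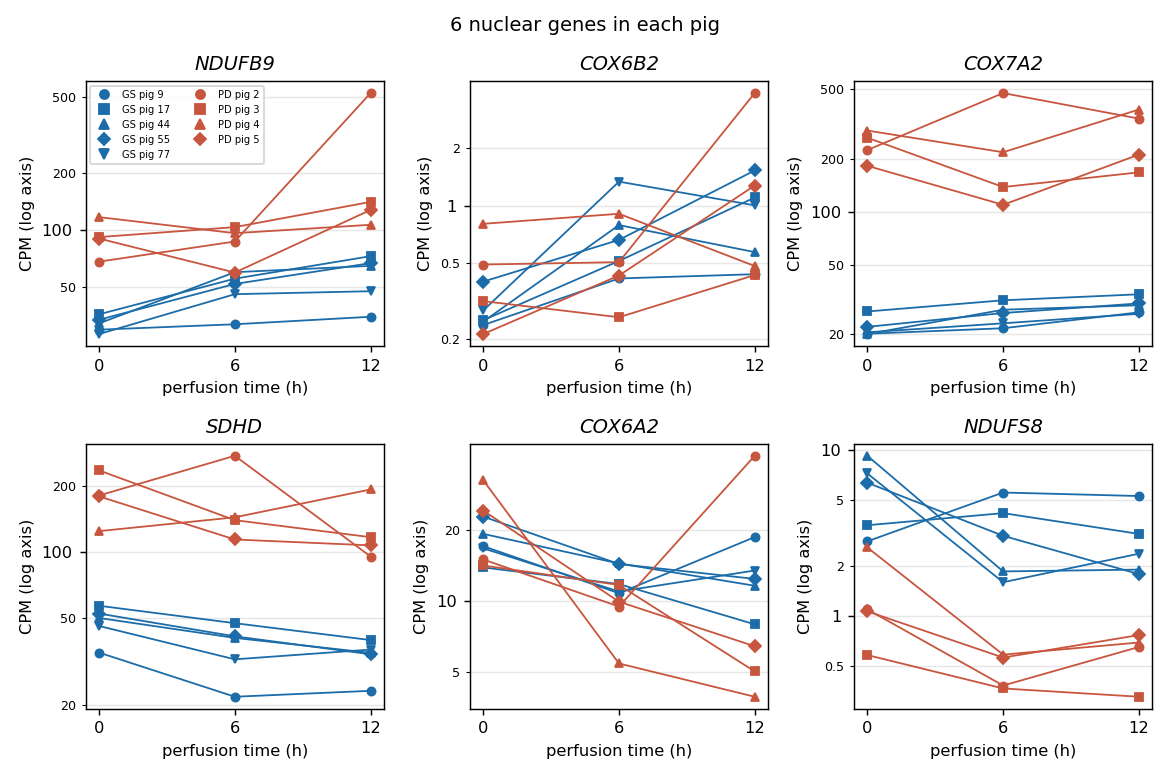
Level of 6 nuclear members in each pig (CPM, log scale, y axis) against perfusion time in h (x axis), GS in blue and PD in red. In GS, NDUFB9, COX6B2 and COX7A2 stand higher at 12h than at 0h in all 5 pigs and SDHD lower in all 5, while PD pig 2 leaves the other PD pigs at 12h for NDUFB9, COX6B2 and COX6A2.

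No member passed the test between 6h and 12h in GS. The edgeR test called 0 of the 64 nuclear and 0 of the 13 mitochondrial members, beside 0.0% of all genes. At an unadjusted p under 0.05 there were 0 nuclear members and 1 mitochondrial member, and 884 of 18594 genes. The median change from 6h to 12h was 0.03 for nuclear and -0.10 for mitochondrial members. By DESeq2, 2 genes were called among all tested.

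The next question was whether the members changed under dialysis. In PD, no member was called at 6h or 12h. At 6h the edgeR test called 0 of 63 nuclear and 0 of 13 mitochondrial members, beside 0.142% of 15545 genes (0.135% higher and 0.00643% lower), and 2 nuclear members and no mitochondrial one had an unadjusted p under 0.05. At 12h it called 0 of both sets, beside 5.98% of all genes (3.22% higher and 2.76% lower), and none had an unadjusted p under 0.05. DESeq2 called 0 members of either set at both times, beside 437 and 2767 genes over the whole table. The median log2 change of the nuclear members was -0.43 at 6h and -0.15 at 12h, and that of the mitochondrial genes 0.45 and 0.09, against -0.02 and -0.05 over all genes. Without the PD pig 2 library at 12h the 12h medians were -0.36 for nuclear and 0.63 for mitochondrial members, and without pig 2 at all times -0.52 and 0.60. The precision was lower than in GS, with a median standard error of 0.396 against 0.126 for nuclear and 0.596 against 0.118 for mitochondrial members at 6h. The ND2 change in PD at 6h, 1.18, was larger than in GS and had a standard error of 0.80, so it was not detectable at this precision.

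The values of the single PD pigs show where the spread lay. ND2 stood at 4104, 2619.9, 2259 and 1011 CPM at 0h in pigs 2, 3, 4 and 5, at 9994, 3288, 6568 and 3167 CPM at 6h and at 206, 3454, 8395 and 3987 CPM at 12h. All 4 pigs were higher at 6h, and at 12h pigs 3, 4 and 5 were higher and pig 2 was far lower. The log2 change was 1.18 (SE 0.80, adjusted p = 0.641) at 6h and 0.74 (SE 0.85, adjusted p = 0.635) at 12h. CYTB stood at 4885, 3569, 4425 and 2173 CPM, 7736, 3777, 8501 and 3369 CPM and 547, 4815, 10090.0 and 5402 CPM at the 3 times, again with all 4 pigs higher at 6h and only pig 2 lower at 12h. COX1, in contrast, stood at 35272, 35362, 22899 and 17086 CPM, 43683, 19702, 26154 and 18716 CPM and 5271, 18668, 24237 and 23562 CPM, with pigs 3 and 2 lower at 12h and pigs 4 and 5 higher.

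In the PD pig 2 library at 12h the 2 genomes went apart. The median change from 0h was -3.16 over the 13 mitochondrial genes in this pig and 0.99 over the nuclear members, against -0.09 to 1.17 and -0.56 to -0.28 in the other 3 PD pigs. Within its mitochondrial counts, COX2 made up 33.8% and COX3 26.4%, and ND2 fell to 206 CPM and ATP8 to 28.7 CPM. Among nuclear members of this library NDUFB9 stood at 525 CPM, COX4I1 at 951 CPM and ATP5F1A at 1352 CPM, each the highest of all 27 libraries. Markers of alveolar type 2 cells went both ways in this pig between 0h and 12h, with SFTPC from 30251 to 85055 CPM and ABCA3 from 210.0 to 402 CPM, but SFTPA1 from 6639 to 1692 CPM, SFTPB from 1064 to 246 CPM and SLC34A2 from 839.7 to 344 CPM. Those of endothelium did so too, with CDH5 from 325 to 53.1 CPM, KDR from 174 to 27.5 CPM and TEK from 153 to 25.0 CPM, but VWF from 383 to 528 CPM. Those of alveolar type 1 cells went from 192 to 8.53 CPM for CAV1 and from 743 to 2299.9 CPM for AGER. Of the 13 marker lists, the sums of 8 stood in this library at their highest value in PD, namely alveolar type 2 (87740 CPM), alveolar type 1 (2507 CPM), macrophage (4190.5 CPM), smooth muscle (3082 CPM), neutrophil (1513 CPM), ciliated airway epithelium (573 CPM), red cell (359 CPM) and striated muscle (13.8 CPM), and that of B and plasma cells stood at its lowest (155 CPM). The part of these markers in the result was not tested. With the length and GC trend removed, the nuclear median of this library's change was 0.49 against 0.97 over the 59 members with a length.

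Without that library, an alternative chosen after the data were seen, 8 nuclear members fell and 2 mitochondrial genes rose in PD at 12h, beside 27.4% of all genes called in either direction. ND2 rose by 1.40 (adjusted p = 0.0194) and CYTB by 0.97 (adjusted p = 0.0491). The nuclear genes that fell were COX6A2 (log2 change -2.16, adjusted p = 0.0071), UQCR10 (-1.53, adjusted p = 0.0197), NDUFS6, NDUFA2, NDUFA8, NDUFA6, ATP5F1D and UQCRC1. Without pig 2 at all 3 times, 12 nuclear members fell and 3 mitochondrial genes rose (CYTB, ND2 and ND4L), beside 25.5% of all genes. Whether members passed the test in PD at 12h thus changed with this library. Cell type markers went both ways in PD pigs 3, 4 and 5 from 0h to 12h. HBB went from 134, 235 and 125 CPM to 11.1, 9.72 and 7.52 CPM. SFTPC went from 19097, 74777 and 38596 CPM to 12582, 19636 and 12691 CPM, and ABCA3 and SLC34A2 were also lower in these pigs. Of the same alveolar type 2 list, SFTPB went from 449, 239 and 421 CPM to 1031, 494 and 344 CPM. SFTPA1 went from 6155, 1336 and 5727 CPM to 7935, 5765 and 3927 CPM. S100A8 went from 78.5, 242 and 73.1 CPM to 43.9, 85.5 and 27.6 CPM. PDGFRA, in turn, went from 22.0, 30.9 and 31.6 CPM to 75.4, 69.7 and 51.5 CPM. Of the same fibroblast list, COL1A2 went from 673, 1056 and 1024 CPM to 482, 478 and 317 CPM. COL1A1, DCN and LUM went both ways between these pigs. The part of these markers in the calls was not tested.

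SDHD and COX6A2, which fell in GS, were also looked at pig by pig in PD. SDHD stood at 180.2, 234, 124 and 179 CPM at 0h, 273, 139, 143 and 114 CPM at 6h and 95.1, 116, 192 and 107 CPM at 12h. It was lower at 12h in pigs 2, 3 and 5 and higher in pig 4, with a log2 change of -0.50 (SE 0.39, adjusted p = 0.463). COX6A2 stood at 15, 14.2, 32.6 and 24.2 CPM, 9.48, 11.7, 5.44 and 9.94 CPM and 41.4, 5.03, 3.93 and 6.43 CPM, lower at 6h in all 4 pigs and at 12h in all but pig 2. NDUFB9, which rose in GS, stood at 68.2, 91.8, 117 and 90.2 CPM, 87.0, 104, 96.3 and 59.8 CPM and 525, 141, 107 and 128 CPM, with a log2 change of 1.03 (SE 0.50, adjusted p = 0.235) at 12h. Pig by pig that change was 2.94 in pig 2 and 0.61, -0.13 and 0.50 in pigs 3, 4 and 5. Between 6h and 12h in PD, 0 nuclear and 0 mitochondrial members were called, beside 0.0% of all genes, with 2 and 0 members and 1562 genes at an unadjusted p under 0.05. DESeq2 called 0 members there and 235 genes over the whole table.

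The complexes were then set side by side by the median change of their genes in each pig. In GS at 6h the mitochondrial genes of complex I had medians of 0.78, 0.66, 0.62, 0.19 and 0.00 and its nuclear genes -0.30, 0.04, 0.06, 0.03 and -0.05. At 12h the mitochondrial genes gave 0.51, 0.42, 0.50, 0.26 and -0.33, and the nuclear genes -0.03, -0.05, 0.09, -0.02 and 0.03. The mitochondrial median lay above the nuclear one in every GS pig at 6h and in all but pig 77 at 12h. For complex II the GS medians were -0.65, -0.26, -0.14, -0.18 and -0.25 at 6h and -0.46, -0.37, -0.28, -0.38 and -0.24 at 12h, below 0 in each pig. Nuclear genes of complex V gave -0.09, 0.18, 0.27, 0.29 and 0.22 at 12h, and its 2 mitochondrial genes 0.31, 0.37, 0.12, 0.72 and 0.22. These medians are descriptions, with no test, as the genes of a complex are measured in the same libraries.

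In the PD pigs 2, 3, 4 and 5, the nuclear medians at 6h were 0.33, -0.46, -0.68 and -0.78, so that pigs 3, 4 and 5 were below 0 and pig 2 above it. At 12h they were 0.99, -0.56, -0.36 and -0.28. The mitochondrial medians were 0.31, -0.38, 0.92 and 0.63 at 6h and -3.16, -0.09, 0.96 and 1.17 at 12h. In pigs 3, 4 and 5 the nuclear median lay below the mitochondrial one at both times, whereas at 12h pig 2 had the reverse. The length slope of the libraries moved with the nuclear medians, from -0.21 at 0h to -0.36 at 6h in pig 2, and from -0.27 to -0.11, -0.36 to -0.21 and -0.29 to -0.07 in pigs 3, 4 and 5. With the trend removed, an alternative chosen after the data were seen, the medians over the 59 nuclear members with a length were 0.10, -0.30, -0.52 and -0.47 at 6h and 0.49, -0.31, -0.16 and -0.20 at 12h, smaller in size and of the same sign in each of the 4 pigs. Nuclear genes of complex III gave the lowest nuclear medians in these 3 pigs, at -0.79, -1.23 and -0.98 at 6h.

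**Figure D4:**
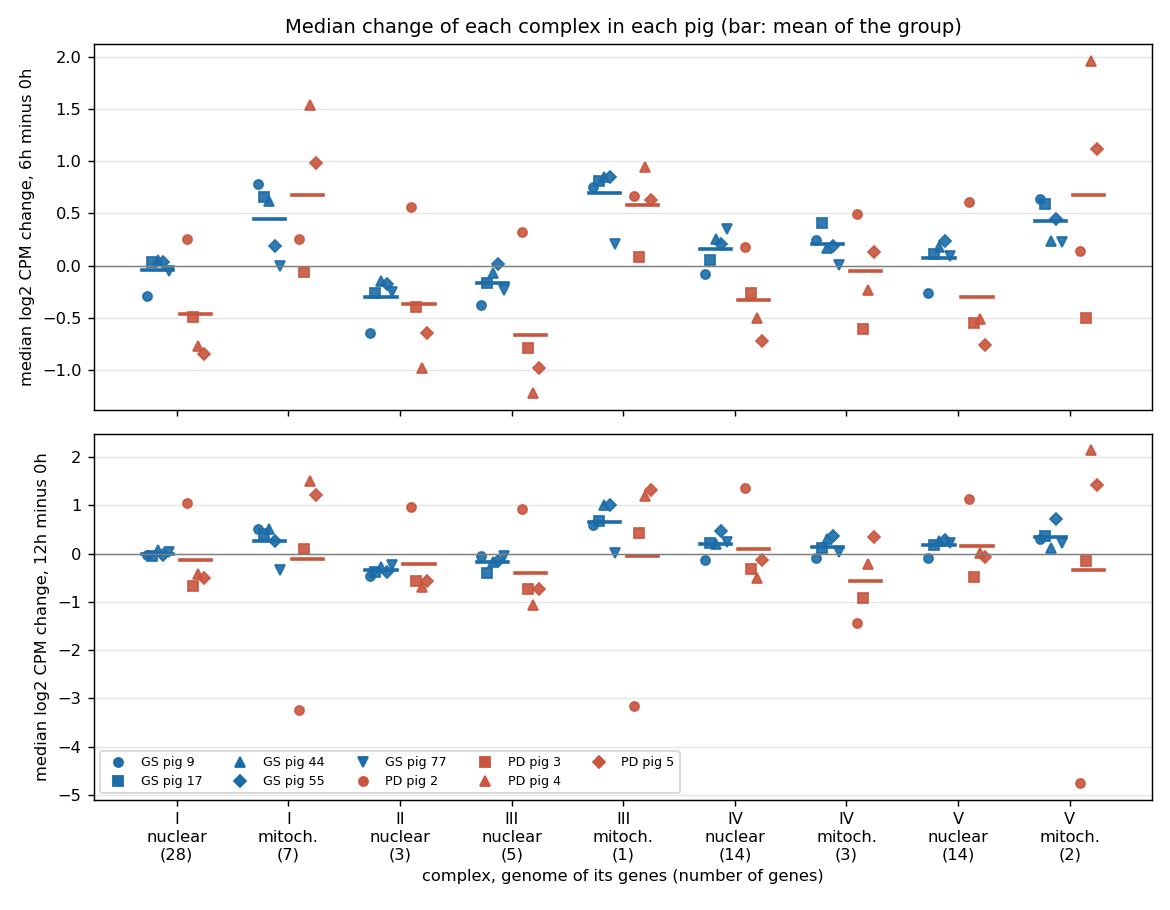
Median change of the genes of each complex, split by genome (x axis, number of genes in brackets), from 0h to 6h (top) and to 12h (bottom) on the log2 CPM scale (y axis), 1 point a pig, GS in blue and PD in red, bars at the group mean. Mitochondrial groups of GS lie mostly above 0 and complex II lies below 0 in all GS pigs, and PD pig 2 stands apart from the other PD pigs in the lower panel.

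Whether the change itself differed between the groups was tested with an interaction term over all 27 libraries. No gene of any kind passed at 6h or 12h (edgeR, 0.0% of 17884 genes), so none of the members did. At an unadjusted p under 0.05 there were 4 nuclear and 0 mitochondrial members at 6h and 0 and 0 at 12h, beside 1046 and 1069 genes, and DESeq2 called 7 and 15 genes over the whole table, with 0 members among them. The fitted difference, PD minus GS, had a median of -0.45 over the nuclear members at 6h, with 9 of 64 above 0, and of -0.10 over the mitochondrial genes, against 0.02 over all genes. At 12h the medians were -0.14 and -0.39 against -0.01. Without the PD pig 2 library at 12h they were -0.41 for nuclear and 0.18 for mitochondrial members, and without pig 2 at all times -0.56 and 0.13, so the sign of the mitochondrial median at 12h turned with this library. Without pig 2, ATP5ME, NDUFS5, NDUFS3, NDUFB8, UQCRQ and ATP5PF had a lower change in PD at 6h, beside 1.37% of all genes called, and UQCR10, COX7C, ATP5F1D and ATP5PF at 12h, beside 0.824%. A difference between GS and PD in the response of these genes was thus not detectable with all 4 PD pigs, and the calls appeared only when pig 2 was left out.

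The groups differed at 0h, before perfusion. Of 62 nuclear members tested at 0h, 55 were higher and 2 lower in PD than in GS, with a median log2 difference of 1.79, whereas 3 of 13 mitochondrial genes were higher and none lower, with a median of 0.30. Over all 16477 genes 21.3% were higher, 19.3% lower and 40.6% in either direction, and the median was 0.00. By complex, the nuclear medians were 1.84 for complex I (25 of 28 higher), 1.75 for complex II (3 of 3), 1.49 for complex III (4 of 5), 1.31 for complex IV (9 of 12) and 2.23 for complex V (14 of 14). The 3 mitochondrial genes that were higher were those of complex IV, and the mitochondrial medians were 0.01 for complex I, 1.54 for complex IV and -0.42 for complex V. These differences were fitted again after the length and GC trend of each library was removed, and that value is given after the fitted one for the genes named next. In bulk tissue a different number of cells of a type and a different amount of RNA per cell cannot be told apart.

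NDUFA4, of complex IV, shows the pattern. At 0h it stood at 45.5, 43.5, 58.8, 50.7 and 48.9 CPM in the GS pigs and 288, 364, 283 and 249.5 CPM in the PD pigs, with no overlap, and the log2 difference was 2.63 (SE 0.19, adjusted p = 4.1e-06), or 1.26 with the trend removed. COX7A2 stood at 20.2, 27, 20.1, 22.1 and 20.5 CPM and 225, 265, 291 and 183 CPM, with a log2 difference of 3.50 (SE 0.21, adjusted p = 3.21e-06), or 2.24 with the trend removed. Every PD pig was above every GS pig for both genes. NDUFA11, which builds part of the membrane arm of complex I, had the largest difference of the members, 4.55 (SE 0.70, adjusted p = 0.000399), and also with the trend removed (3.52), but its GS libraries at 0h held 10 to 81 counts, and its levels were 0.296, 2.26, 0.671, 0.565 and 0.748 CPM in GS and 9.28, 5.11, 46.3 and 20.3 CPM in PD.

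Further large differences were those of NDUFB8 and NDUFS4 in complex I (3.53 and 3.41, with the trend removed 2.53 and 2.62), UQCRQ and UQCR10 in complex III (3.42 and 2.80, then 2.43 and 1.67) and ATP5MG in complex V (2.94, then 2.40). The catalytic subunits ATP5F1B and ATP5F1A differed by 2.07 and 1.63, and by 1.67 and 1.09 with the trend removed. The c-ring genes ATP5MC1, ATP5MC2 and ATP5MC3 differed by 2.32, 2.13 and 1.03, and then by 1.6, 2.37 and -0.03. UQCRC1 went from 1.49 to 1.23, NDUFS1 from 1.12 to 0.67 (adjusted p = 0.0525) and SDHB from 0.62 to -0.35 (adjusted p = 0.0624), so that the calls of ATP5MC3, NDUFS1 and SDHB were lost. ATP5MD, ATP5IF1, the inhibitor, and COX4I1 differed by 3.49, 2.42 and 1.30 with a call, but have no length here, so no trend could be removed from them.

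The members called lower in PD as fitted were NDUFS8 and NDUFA4L2. NDUFS8 stood at 2.81, 3.51, 9.22, 6.34 and 7.21 CPM in GS and 1.09, 0.579, 2.58 and 1.06 CPM in PD at 0h, with every PD pig below every GS pig, and a log2 difference of -2.08 (SE 0.50, adjusted p = 0.00556), or -2.47 (adjusted p = 0.00108) with the trend removed. NDUFA4L2 stood at 32.1, 18.3, 54.7, 33.7 and 35.7 CPM and 12.3, 11.5, 5.28 and 25.1 CPM, with PD pig 5 within the GS range, and a log2 difference of -1.33 (SE 0.41, adjusted p = 0.0211), which lost its call with the trend removed (-0.67, adjusted p = 0.194). NDUFB10, in turn, was at -0.17 with no call as fitted and was lower with the trend removed (-0.96, adjusted p = 0.000903). NDUFV1, UQCRC2, COX4I2 and COX6A2 passed in neither form, at -0.38, 0.59, 0.69 and 0.31 as fitted and -0.59, 0.39, -0.12 and 0.37 with the trend removed.

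Of the mitochondrial genes, COX1 had no overlap at 0h, with 9976, 6568, 11794, 9388 and 11410.2 CPM in GS and 35272, 35362, 22899 and 17086 CPM in PD and a log2 difference of 1.54 (SE 0.30, adjusted p = 0.00189). COX2 and COX3 differed by 1.78 (SE 0.48, adjusted p = 0.0105) and 1.35 (SE 0.38, adjusted p = 0.0133), with overlapping pigs. The ND genes, CYTB, ATP6 and ATP8 had no call, from -1.18 for ATP8 to 1.01 for ND6.

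With the length and GC trend of each library removed, 44 of the nuclear members were higher and 2 lower (NDUFS8 and NDUFB10), with a median of 1.05. These include the 5 members with no length (COX4I1, ATP5F1D, ATP5IF1, ATP5MD and ATP5ME), from which no trend could be removed, and over the 57 with a length 39 were higher and 2 lower, with a median of 0.90 against 1.75 as fitted. In the same fit 0 mitochondrial genes were higher and 5 lower, with a median of -1.07, beside 3273 genes higher and 2994 lower of all 16477. The 5 were ND2, ND4, ND4L, ND5 and ATP8, at -1.47, -2.10, -2.55, -1.83 and -3.02. COX1, COX2 and COX3 went to 0.49, 0.22 and 0.03, all without a call. The nuclear medians by complex became 0.89, 0.88, 1.23, 0.55 and 1.64 for complexes I to V, that of complex V being 1.49 over its 10 members with a length. The direction of the mitochondrial median at 0h therefore depended on whether this trend was removed, and that of the nuclear median did not.

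Markers of other cell types also differed at 0h, but seldom as whole lists. The summed markers of alveolar type 2 cells stood at 7355 to 9879 CPM in GS and 26342 to 77557 CPM in PD, yet of the 5 markers only SFTPC was called higher, SFTPB was lower in every PD pig (239 to 1064 CPM against 1152 to 1789 CPM in GS), and the median log2 difference was 0.16. Those of neutrophils summed to 121 to 369 CPM in GS and 600 to 1223 CPM in PD, with S100A8 and S100A12 higher and CSF3R lower. Those of macrophages summed to 3246 to 6210 and 2130 to 2793 CPM, with 2 of 6 lower, and those of endothelium to 2001 to 2722 and 965 to 1793 CPM, with 1 of 6 higher and 3 lower. Red cell markers summed to 0.799 to 10.6 CPM in GS and 51.4 to 236 CPM in PD, almost wholly HBB in PD, the 1 of 2 tested that was called. B and plasma cell markers summed to 218 to 314 and 469.9 to 2122 CPM, with JCHAIN and CD79B higher and CD79A lower, and those of ciliated airway epithelium to 189 to 257 and 278 to 353 CPM, with 2 of 6 higher and 1 lower. The sum of each list named here lay apart between the groups. Their part in the 0h difference was not tested.

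**Figure D5:**
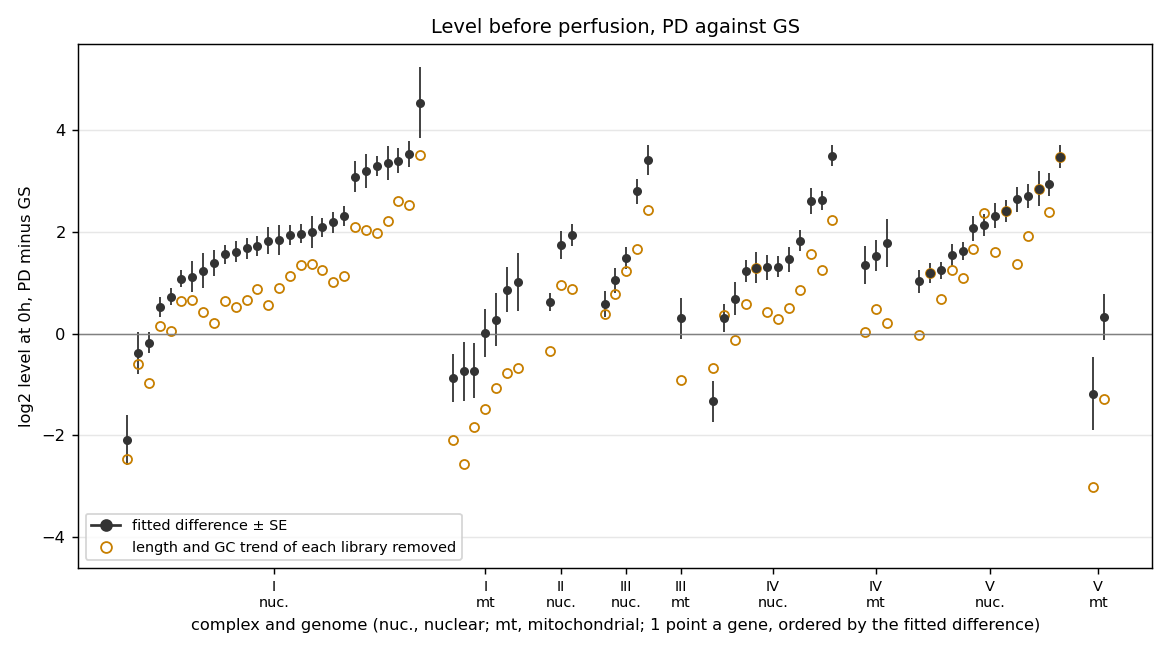
Difference in level at 0h, PD minus GS on the log2 scale (y axis), for each tested member by complex and genome (x axis), as fitted with its standard error (filled points) and after the length and GC trend of each library was removed (open circles). Most nuclear points lie above 0 in both forms, whereas all mitochondrial points but those of COX1, COX2 and COX3 lie below 0 once the trend is removed, and the 5 members with no length have nearly the same value in both.

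Levels were also compared pig by pig at each time. Every PD pig lay above every GS pig for 50 of the 64 nuclear members at 0h, 47 at 6h and 42 at 12h, beside 15.4%, 11.1% and 9.87% of 17884 genes, and below for 1, 2 and 1, beside 16.9%, 8.82% and 10.3%. With the length and GC trend of each library removed, an alternative chosen after the data were seen, the counts above were 42, 35 and 36, beside 15%, 8.68% and 9.65% of all genes, and those below 4, 2 and 2, beside 16.5%, 7.67% and 9.92%. Over the 59 nuclear members with a length, the counts above went from 45, 44 and 39 to 37, 32 and 33 when the trend was removed, beside 16%, 8.99% and 10.2% of 15002 genes with a length. For the 13 mitochondrial genes the counts above were 1, 1 and 0, and 0 at all 3 times with the trend removed. The 12h counts include the PD pig 2 library, and counts without it are not given. COX1 stood at 5271 CPM in that library and 18668, 24237 and 23562 CPM in pigs 3, 4 and 5 at 12h. The GS pigs stood at 6668 to 14169 CPM, so only pig 2 kept COX1 out of the 12h count as fitted. The same held for NDUFS1 and UQCRFS1, at 47.0 and 86.5 CPM in pig 2 against GS maxima of 68.8 and 95.6 CPM. These counts share the same pigs at the 3 times.

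The genes that build and run the complexes were taken from fixed lists and read against the share of all genes in GS, of which 13.6% rose and 14.9% fell at 6h and 17.6% rose and 20.8% fell at 12h. Of 17 assembly factors of complex I, 1 rose and 1 fell at 6h and 1 rose and 3 fell at 12h. NDUFAF4 rose by 0.66 (adjusted p = 0.0172) and 0.93 (adjusted p = 0.00187), and NDUFAF1, which helps to build the membrane arm, fell by 1.16 (adjusted p = 0.00733) and 1.18 (adjusted p = 0.00498). Of 25 assembly factors of complexes II to V, 4 rose and 6 fell at 6h and 4 rose and 5 fell at 12h. HIGD1A rose by 1.33 and 1.37, COA7 by 0.95 and 1.32 and SCO1, a copper carrier of complex IV, by 0.57 and 0.77, each in 5 of 5 pigs. LYRM7, which serves the Rieske protein of complex III, fell by 1.13 and 1.31 and COA4 by 1.02 and 1.20, in 5 of 5 pigs. In PD at 12h NDUFAF6 rose by 1.82 (adjusted p = 0.0447) and COA4 had a log2 change of -2.28 (adjusted p = 0.0335), the only calls of these 2 lists, beside 3.22% higher and 2.76% lower over all genes, and both were lost without pig 3, 4 or 5.

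Of 15 electron carriers and further subunits, 1 rose and 3 fell at 6h and 2 rose and 4 fell at 12h, beside 28.5% and 38.4% of all genes called in either direction. CYCS, cytochrome c itself, rose by 1.33 (SE 0.16, adjusted p = 0.000274) at 6h and 1.25 (SE 0.16, adjusted p = 0.00017) at 12h in 5 of 5 pigs, and by 1.77 (SE 0.35, adjusted p = 0.0233) at 12h in PD in 4 of 4 pigs. It was the only call among the 14 genes of this list tested in PD at 12h, beside 3.22% higher and 2.76% lower over all genes. The PD call was lost in 3 of the 4 fits without 1 PD pig, with an adjusted p of up to 0.277. COQ9, COQ5 and PDSS2, of ubiquinone synthesis, fell by 0.84, 0.79 and 0.62 at 6h and by 0.77, 0.93 and 0.71 at 12h in GS.

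Of 24 genes of mitochondrial transcription, RNA processing and DNA maintenance, 6 rose and 6 fell at 6h and 10 rose and 7 fell at 12h in GS, with medians of 0.11 and 0.18, beside 13.6% higher and 14.9% lower at 6h and 17.6% and 20.8% at 12h over all genes. TFAM, which packs mitochondrial DNA and starts its transcription, rose by 0.68 (adjusted p = 0.00214) and 0.97 (adjusted p = 0.000185). MTPAP, the mitochondrial poly(A) polymerase, rose by 1.19 and 1.30, TFB2M, a transcription initiation factor, by 0.91 and 0.98, FASTKD5, a factor of RNA processing, by 0.84 and 1.20, and TWNK, the helicase of mitochondrial DNA, by 0.70 and 1.05. FASTKD1 fell by 1.28 and 1.04, and MTERF1 fell by 1.0 and 1.20. In PD at 12h, TFAM, MTPAP and TWNK rose by 1.56, 1.65 and 1.88 (adjusted p = 0.0434, 0.0218 and 0.03), each in 4 of 4 pigs, and no gene of this list fell, beside 3.22% higher and 2.76% lower over all genes. Each of these 3 calls was lost without pig 3, 4 or 5, and without pig 3 or pig 5 no gene of the whole table was called in PD at 12h.

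Of 16 regulators of mitochondrial biogenesis, 3 rose and none fell at 6h, and 6 rose and 2 fell at 12h in GS, beside 13.6% higher and 14.9% lower at 6h and 17.6% and 20.8% at 12h over all genes. PPRC1, a coactivator of respiratory genes, rose by 1.96 (adjusted p = 0.000109) and 2.05 (adjusted p = 4.48e-05), and MYC by 1.62 and 1.66, both in 5 of 5 pigs. NRF1 and YY1, whose motifs were searched in the promoters above, rose at 12h by 0.49 and 0.47. PPARGC1B, a related coactivator, fell at 12h by 0.83 with 2 of 5 pigs higher, and SIRT3 by 0.75. In PD at 12h PPRC1, MYC and ESRRG rose by 2.27, 2.62 and 2.51, in 4 of 4 pigs. None of the 16 fell there, beside 3.22% higher and 2.76% lower over all genes. All 3 calls were lost without pig 3 or pig 5, and that of ESRRG also without pig 4.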

How the data were processed

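Lung RNA of 9 pigs at 3 times was measured by stranded, paired-end sequencing of polyadenylated RNA. The authors deposited 1 table of raw read counts per gene for the 27 libraries. They trimmed reads with cutadapt 1.15, aligned them with TopHat2 2.0.14 to Sscrofa11.1 and counted with featureCounts (Subread 1.6.0). Strand and multimapping settings are not given in the sources used here. The assignment of reads from similar sequences (parts of ATP5MC1 to ATP5MC3, nuclear copies of mitochondrial DNA) and from overlapping genes is therefore uncertain.

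Counts were tested with edgeR 4.0.16 (limma 3.58.1, R 4.3.3): TMM scaling, filterByExpr, a robust quasi-likelihood fit and two-sided tests, with Benjamini-Hochberg adjustment over all genes tested and a call at adjusted p under 0.05. GS and PD were fitted apart with the pig as a block. The same animal gave all 3 times, and deviations of same-pig libraries correlated on average at r = 0.513 in GS and 0.112 in PD, across genes. The change in PD against GS was an interaction term over all libraries, and the 0h level used the 9 libraries at 0h. Pigs are the replicates. Changes in single pigs used log2 CPM with a pseudocount of 0.5. Scripts were tested on simulated counts.

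Members and lists were chosen with earlier results of these data known, so no p-value is given for a list. Named were all 13 mitochondrial genes, fixed core subunits and paralogs, and in each comparison and complex up to 3 called members in each direction that moved the same way in every pig, with the largest change. Outside that last rule, NDUFS8, ATP5ME, NRF1, YY1 and the members called only without PD pig 2 were added after their values were seen. NDUFB10, UQCRC2 and PPARGC1B were also named outside these rules. Of the fixed core subunits, 1 is not reported here. Alternatives were no block, DESeq2 1.42.0, DESeq2 size factors, scaling from nuclear genes, no filter, length and GC trend removed, 1 fit of all libraries and leaving out single pigs.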

Additional observations from a re-analysis of the deposited data

Results flagged for a closer look

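Of 144 groups of 4 or 5 pigs examined, 13 held 1 sample set apart from the others. The gap was judged by a rule at the 95% level, by which chance alone picks out about 5% of separate groups. These groups share pigs and genes, so their number cannot be read against that share. Medians of the single mitochondrial gene of complex III were counted but could not be flagged. No member moved one way in every GS pig and the other way in every PD pig.

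GS pig 17 stood apart in the share of counts on the 65 nuclear members at 0h (0.348%, the other 4 pigs at 0.294% to 0.304%) and at 12h (0.308%, the others at 0.272% to 0.274%). GS pig 9 stood apart in the median change of the nuclear members at 6h (-0.27, the others at 0.03 to 0.10), in that of complex II at 6h (-0.65, the others at -0.26 to -0.14) and in that of the nuclear genes of complex V at 12h (-0.0917, the others at 0.18 to 0.29). GS pig 77 stood apart in the median of the mitochondrial genes at 12h (0.0423, the others at 0.35 to 0.40), in ND4L at 12h (-0.45, the others at 0.26 to 0.51), in CYTB at 6h (0.21, the others at 0.75 to 0.85) and in NDUFS1 at 6h (-0.53, the others at -0.27 to -0.20).

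PD pig 2 stood apart at 12h in the medians of complex I nuclear genes (1.06, the others at -0.68 to -0.41), complex II (0.97, the others at -0.69 to -0.56) and complex III nuclear genes (0.93, the others at -1.06 to -0.73). PD pig 4 stood apart in SDHD at 12h (0.63, the others at -1.01 to -0.74). These changes are log2 CPM differences from 0h in the same pig.

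Outside the members, the mitochondrial ribosomal RNA genes of the same table took a median of 0.0302% of the counts in GS (0.0181% to 0.0446%) and 0.163% in PD (0.0929% to 0.289%), with no overlap between the groups. The difference was not tested.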

How the results depend on the processing

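With no pig block, 1 nuclear and 0 mitochondrial members were called in GS at 6h and 2 and 0 at 12h, while calls over all genes went from 5297 to 1731 and from 7136 to 3081 of 18594. In 1 fit of all 27 libraries 0 and 0 were called at 6h and 1 and 0 at 12h, beside 1606 and 2882 of 17884 genes. The pairing comes from the animals and was part of the reported test. DESeq2 gave 11 nuclear members at 6h (6342 of all genes), no filter on low counts gave 3 at 6h and 5 at 12h (4657 and 6481 of 27744), and removal of the length and GC trend gave 14 at 12h (7503). For PD at 12h, where 930 of 15545 genes were called as reported, removal of the trend gave 2 nuclear members (2978 genes), the fit of all 27 libraries 3 (4092 of 17884), and the fit without the PD pig 2 library at 12h 8 nuclear and 2 mitochondrial members (4350 of 15875). At 0h, removal of the trend gave 5 mitochondrial members, all lower, and turned SDHB to -0.35 (adjusted p = 0.0624) and ATP5MC3 to -0.0274 (adjusted p = 0.938).

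Leaving out single pigs gave 1 to 6 nuclear and 4 to 8 mitochondrial members in GS at 6h, 3 to 13 and 4 to 5 at 12h, 0 to 12 and 0 to 3 in PD at 12h, and 0 to 6 nuclear members at 6h and 0 to 4 at 12h in the change in PD against GS. The same fits called 2720 to 4828 and 4640 to 7585 genes in GS, 0 to 4000 in PD at 12h, and 0 to 254 and 0 to 153 in the change. The PD and interaction maxima all came without pig 2. The cause of each shift was not tested. A count of 3 corresponds to 0.0411 to 0.104 CPM in the GS libraries and to 0.129 to 0.324 CPM in the PD libraries, so levels below this were not resolved.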

Other observations

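In GS, 5 of the 12 tested genes that move ATP, ADP and phosphate across the mitochondrial membranes rose at 6h and 5 at 12h, beside 13.6% and 17.6% of all genes, and the others did not pass the test. SLC25A5, an adenine nucleotide translocase, rose by 0.78 (adjusted p = 0.00239) at 6h and 1.09 (adjusted p = 0.000242) at 12h, SLC25A3, the phosphate carrier, by 0.53 and 0.68, SLC25A6 by 0.46 and 0.69, and VDAC1, a pore of the outer membrane, by 0.36 and 0.58, each in 5 of 5 pigs. In PD none of the 12 was called at 6h or 12h by edgeR, beside 0.142% and 5.98% of all genes.

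Of 25 genes of the tricarboxylic acid cycle and pyruvate entry, 2 rose and 2 fell at 6h and 4 rose and 3 fell at 12h in GS, beside 28.5% and 38.4% of all genes called in either direction. IDH3A, a subunit of isocitrate dehydrogenase, rose by 0.40 (adjusted p = 0.0335) and 0.60 (adjusted p = 0.00341). DLAT, of the pyruvate dehydrogenase complex, fell by 0.46 (adjusted p = 0.0358) and fell by 0.59 (adjusted p = 0.00882). PDK1, a kinase that inhibits that complex, fell by 0.87 and 0.58, while its relative PDK4 rose by 1.27 at 6h in 5 of 5 pigs. Of 14 genes of mitochondrial dynamics and mitophagy, 2 rose and 2 fell at each time, beside the same shares of all genes, with PHB2 higher by 0.54 and 0.93 and MFN2, a fusion protein, at -0.48 and -0.59.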
